A study of Mus musculus with 18 samples.

Results

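Whole ovaries of superovulated mice were compared between transported and untransported animals on 6 of the 18 arrays of the series, namely every array whose title names the ovary. The other 12 arrays hold hypothalamus and pituitary of the same animals. Female mice of the strain labelled BABL/c came in 10 pairs of littermates. At 6 weeks of age the members of each pair were assigned at random to a control group or a stress group, and all mice of both groups were superovulated at 9 weeks. The control mice stayed in the laboratory. The stress mice were carried over 1000 km for nearly 10 h at about 50 km/h and returned to the same laboratory.

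Each group gave 3 ovary arrays, which are called classes here. The high array was made from the single mouse that ovulated most oocytes in its group, the low array from the single mouse that ovulated fewest, and the pool array from the other 8 mice mixed together. A group is therefore known from 2 single mice and 1 mixture, and n = 3 below counts these 3 arrays. The high mice of the groups were matched by rank in oocyte number and need not be littermates, and the same holds for the low mice. No group of mice without superovulation is among the 18 samples, so every value describes a stimulated ovary. In whole-tissue RNA, fewer cells of a type and less RNA per cell cannot be told apart.

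Superovulation uses an injected follicle-stimulating activity to grow many follicles and then an injected LH-like signal to make them ovulate. Granulosa cells line the follicle and answer the second signal with prostaglandin and EGF-like growth factor production, expansion of the cumulus around the oocyte, and a switch to progesterone synthesis as they become luteal cells. Theca cells around the follicle make the androgen that granulosa cells turn into estrogen. Glucocorticoids released during stress act through a nuclear receptor that these cells also carry, and several genes induced by that receptor serve as its usual readouts.

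Signals are on a log2 scale with 1 value for each gene and array, so a difference of 1 is a doubling. The 6 ovary arrays correlated with each other at 0.969 to 0.993 and with arrays of the other tissues at 0.828 to 0.925. Of 20 measured markers of granulosa, luteal, theca cells and oocytes, 17 were higher in every ovary array than in any other array. The exceptions were Amh, the anti-Müllerian hormone of growing follicles, Hhip and Ptch1, both of the hedgehog pathway, which other tissues use too. Cyp19a1, Lhcgr, Prlr and Areg had no probe set naming them alone and are not reported.

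Both ovary pools carried pituitary transcripts. Prl, which encodes prolactin in lactotropes, read 4.81, 5.09 and 10.82 in the control high, low and pool arrays and 4.90, 3.63 and 11.44 in the stress arrays. Gh, the growth hormone gene, read 5.90, 5.01 and 10.08 in control and 5.60, 5.09 and 10.46 in stress arrays. The pools of both groups thus lay far above all 4 single mice. Of 55 genes that exceeded every single-mouse array of the other tissues by more than 2 in all single-mouse pituitaries, 21 lay above the single ovaries in the control pool and 28 in the stress pool. Those above by more than 1 were the same 4 in both: Prl, Gh, Pomc (the corticotropin precursor) and Cga (the shared glycoprotein hormone subunit). How many of all genes lay above the single ovaries in a pool was not counted, so the 21 and 28 alone do not mark pituitary transcripts. The excess over the highest single ovary was 5.73 for Prl, 4.18 for Gh, 1.62 for Cga and 1.23 for Pomc in the control pool. It was 6.35, 4.56, 2.07 and 2.34 in the stress pool, so Pomc differed most among these 4, by 1.11 from pool to pool. The reverse was seen outside the ovary, where luteal genes stood out in the stress pools. Akr1c18, the progesterone-inactivating enzyme of the corpus luteum, read 9.26 in the stress pituitary pool against 3.48 to 4.74 in the other 5 pituitary arrays. This matters here because comparisons of ovary with the other tissues use those pools.

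**Figure D1:**
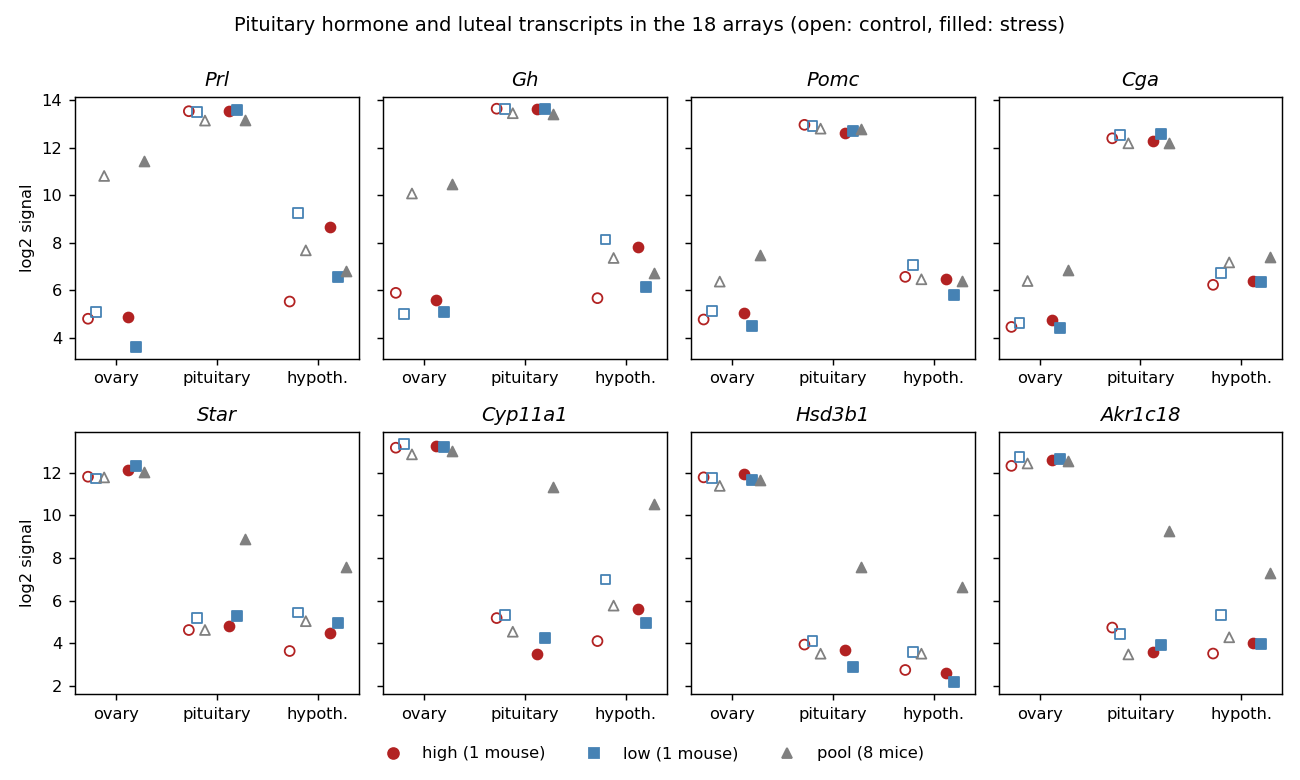
Log2 signal of 4 pituitary hormone genes (top) and 4 luteal genes (bottom) in the 18 arrays by tissue; open symbols are control, filled symbols stress, circles the high mouse, squares the low mouse and triangles the pool. The ovary pools lie above the single ovaries for all 4 hormone genes, with Prl at 10.82 and 11.44, and the stress pools of pituitary and hypothalamus lie above the other arrays of their tissue for the luteal genes.

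The first question was which genes differed in the ovary after transport. Across 22180 genes no difference passed the test: 0 genes, or 0% of those tested, had an adjusted p under 0.05 (limma, Benjamini-Hochberg), and the lowest adjusted p was 0.999. An unadjusted p under 0.05 was reached by 592 genes (2.67%), 344 of them higher and 248 lower under stress, where a level of 5% corresponds to 1109. The 3 stress arrays lay wholly above the 3 control arrays for 1044 genes (4.71%) and wholly below for 902 (4.07%). With the ovulation class as a replicate block, 0 genes passed and 2198 had an unadjusted p under 0.05 (lowest adjusted p = 0.499, limma). Without the pools 0 passed and 1398 had an unadjusted p under 0.05. The direction over all genes was close to even, with 46.8% higher and a median difference of -0.02. The median standard error of a difference was 0.213. These p-values measure the spread between 2 single mice and a mixture, which is not the spread between animals alone. None of the genes below passed the test, so every value that follows is a measured difference and not a call.

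Differences were larger from single mouse to single mouse than from pool to pool. A class difference is the stress minus the control array of that class. A difference beyond 1 in either direction was seen for 508 genes in the high class (248 higher and 260 lower under stress), for 392 in the low class (167 higher and 225 lower) and for 66 in the pool class (44 higher and 22 lower). The mean of the 3 differences went beyond 1 for 30 genes. The genes are no independent replicates, but across them the differences of the high and low classes correlated at 0.144, of the high and pool classes at 0.125 and of the low and pool classes at 0.152. A gene's difference in 1 class thus said little about its difference in another.

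The 15 genes with the smallest p among those higher without overlap and at or above the median level of all genes had differences of 0.54 to 1.86 and unadjusted p of 0.00445 to 0.00986 (limma). No overlap between groups was a condition of the choice, so their shared sign is no support. First among them was Ifi205, a DNA-binding member of the interferon-inducible HIN-200 family. It read 6.98, 6.14 and 6.62 in the control high, low and pool arrays and 7.87, 7.22 and 7.65 in the stress arrays. The lowest stress value lay above the highest control value, and the differences by class were alike, at 0.89, 1.08 and 1.02. The mean difference was 1.0 (SE 0.26, 95% interval 0.40 to 1.59), or 1.99-fold.

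Tug1, a long noncoding RNA, read 8.64, 8.40 and 8.57 in control and 9.49, 9.09 and 9.13 in stress arrays, a difference of 0.70 (SE 0.19). Sh3bgrl, a small thioredoxin-fold protein, read 9.33, 9.27 and 9.19 against 10.15, 9.69 and 10.01, a difference of 0.69. Both were higher in all 3 classes. Wwp1, a ubiquitin ligase, differed by 0.64, Cd2ap, an adaptor between membrane receptors and the actin skeleton, by 0.64, Kif11, the motor that separates the spindle poles, by 0.64, and Mios, a part of the amino acid sensing complex upstream of mTORC1, by 0.62. The zinc-finger genes Zfp322a and Zfp961 differed by 0.67 and 0.54, and Snx10, a sorting nexin of the endosome, by 0.59.

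Of the remaining ranked genes, Ms4a6d, a membrane protein of macrophages, read 5.65, 5.63 and 6.45 in control and 7.41, 6.65 and 6.82 in stress arrays. Its difference shrank from 1.75 in the high class to 1.02 in the low class and 0.37 in the pool class (mean 1.05, SE 0.29). Igsf6, an immunoglobulin-like receptor of myeloid cells, differed by 0.62, and Casp12, an inflammatory-type caspase, by 0.76. Tnfsf10, the death ligand TRAIL, differed by 1.45, 0.66 and 0.32 in the high, low and pool classes. Gbp4, an interferon-induced GTPase, had the largest mean difference of the ranked genes, 1.86 (SE 0.56), and read 4.49, 5.47 and 5.06 in control and 8.34, 5.98 and 6.26 in stress arrays. The stressed high mouse set most of that mean, with a class difference of 3.85 against 0.51 and 1.20. Of 11 measured macrophage markers, 4 were higher on average (median -0.07, mean levels 7.52 to 7.82 in control and 7.46 to 7.91 in stress arrays).

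The 15 genes ranked the same way among those lower under stress differed by -1.06 to -0.49, with unadjusted p of 0.00556 to 0.0216 (limma). Saa2, an acute-phase apolipoprotein, read 8.20, 8.55 and 7.90 in control and 7.48, 6.50 and 7.50 in stress arrays. All 3 stress values lay below the lowest control value, with the stressed low mouse lowest of all. The class differences were -0.72, -2.06 and -0.40 (mean -1.06, SE 0.30). S100a4, a calcium-binding protein of fibroblasts and myeloid cells, read 8.16, 8.71 and 8.04 in control and 7.40, 7.14 and 7.88 in stress arrays, with class differences of -0.76, -1.56 and -0.15. Saa3, a relative of Saa2 that was chosen after its values were seen, also differed mainly in the low class (0.01, -1.85 and -0.26).

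Cpxm1, a secreted carboxypeptidase-like protein, had the smallest p in this direction and read 8.16, 8.10 and 7.99 in control and 7.31, 7.64 and 7.37 in stress arrays, a difference of -0.64 (SE 0.18). Gja4, a connexin of oocyte-granulosa and endothelial gap junctions, differed by -0.51, with -0.90 in the high class, -0.29 in the low class and -0.34 in the pool class. Pf4, a platelet chemokine, differed by -0.63 and Qpct, an enzyme that cyclizes N-terminal glutamine of peptides, by -0.65. Pdlim4, an actin-associated protein, differed by -0.61, Mmel1, a metallopeptidase of the neprilysin family, by -0.72, and Dpysl4, a microtubule-associated protein, by -0.66. The rest were Agap3 (-0.53), Shld1 (-0.53), Tprn (-0.53), Zfp553 (-0.49), Tmem223 (-0.56) and Nudt8 (-0.49).

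**Figure D2:**
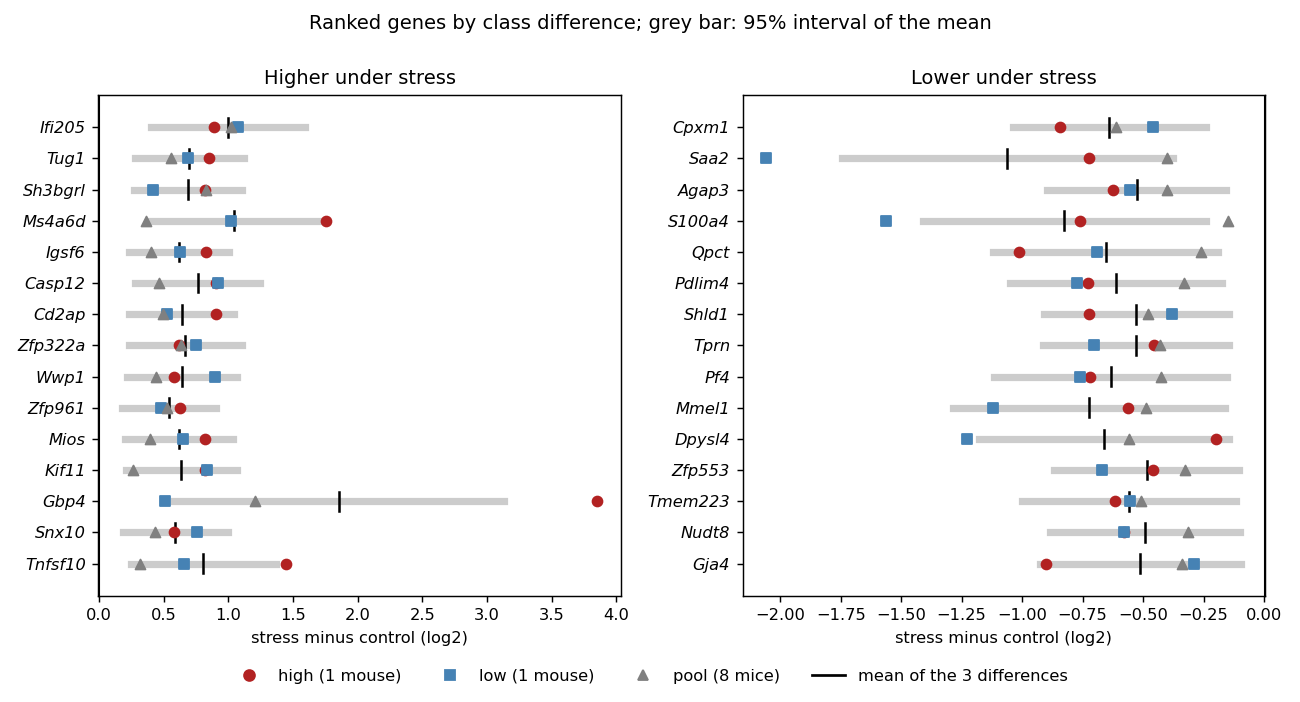
Stress minus control (log2) of the 15 ranked genes in each direction; circles, squares and triangles are the differences in the high, low and pool class, the black tick is their mean and the grey bar its 95% interval. The pool difference is the smallest of the 3 for 10 genes on the left and 11 on the right, and Gbp4 reaches 3.85 in the high class.

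Of these 30 genes, 0 were among the 55 pituitary-enriched genes, which are few of the 22180 tested. A gene whose pools both lie above all single mice overlaps between the groups, so the choice shut such genes out. The 0 therefore does not show that the ranked genes are free of pituitary transcripts. A higher mean in pituitary than in ovary was seen for 6 of the higher and 4 of the lower genes. Its share over all genes was not counted. Gene size moved with the direction. The median genomic span was 23.8 kb for the 15 higher and 6.86 kb for the 15 lower genes, so the lower ones were short. Over 10622 protein-coding genes with a mean no lower than the median of all genes, whose median span was 24.6 kb, the difference correlated with span across genes at a Spearman rho of 0.350 (0.288 in the high class, 0.302 in the low class and 0.209 in the pool class). The 2126 of these genes with the shortest spans (median 4.62 kb) had a median difference of -0.13 and the 2125 with the longest (median 124 kb) of 0.08. The part of gene length in the gene differences was not tested.

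Ovarian steroid synthesis differed little on average, with 10 of 15 measured genes higher under stress and a median of 0.13. Star, which moves cholesterol into the mitochondrion for the first step, was the member with the smallest p. It read 11.81, 11.73 and 11.78 in the control high, low and pool ovaries and 12.14, 12.32 and 12.04 in the stress ovaries. The groups did not overlap, and the controls lay close together. The control mean was 11.77 ± 0.04 (SD, n = 3) and the stress mean 12.17 ± 0.14 (SD, n = 3), a difference of 0.40 (SE 0.17, 95% interval 0.02 to 0.78), or 1.32-fold. Its unadjusted p was 0.0427 and its adjusted p 0.999 (limma).

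Cyp11a1, which cuts the cholesterol side chain, read 13.17, 13.35 and 12.86 in control and 13.23, 13.21 and 13.02 in stress arrays, a difference of 0.03 (95% interval -0.40 to 0.46). These values are near the highest of the table, 13.66, and whether the array limits differences at that level was not tested. Hsd3b1, which makes progesterone from pregnenolone, differed by 0.13 and Hsd17b7, the luteal estradiol-forming enzyme, by -0.09. Tspo, a cholesterol-binding protein of the outer mitochondrial membrane, read 9.15, 8.96 and 9.11 in control and 8.90, 8.55 and 8.90 in stress arrays, lower without overlap by 0.29. Cyp1b1, an estrogen hydroxylase, differed by 0.30.

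Enzymes of the theca and granulosa arms of estrogen synthesis differed in opposite directions between classes. Cyp17a1, the androgen-forming enzyme of theca cells, read 11.41, 10.51 and 11.36 in control and 11.00, 11.52 and 11.50 in stress arrays, so that it was lower by 0.41 in the stressed high mouse and higher by 1.01 in the stressed low mouse. Hsd17b1, the granulosa enzyme that reduces estrone to estradiol, read 9.69, 8.51 and 9.29 in control and 8.22, 8.85 and 8.98 in stress arrays, with class differences of -1.47, 0.34 and -0.30. The groups overlapped for both genes. Nr5a1 (steroidogenic factor 1) differed by -0.04.

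Genes of the corpus luteum were split evenly, with 8 of 17 higher (median -0.03). Akr1c18 read 12.32 to 12.75 in control and 12.53 to 12.64 in stress arrays, and Ptgfr, the receptor through which prostaglandin F2 alpha ends luteal life, read 10.14 to 10.92 and 10.13 to 10.86. Sfrp5, a secreted Wnt antagonist, was higher without overlap by 0.67, at a low level (3.69 to 4.28 in control and 4.60 to 4.85 in stress arrays). Pgrmc1, a heme-binding membrane protein linked to progesterone action, read 9.55, 9.42 and 10.62 against 9.91, 10.00 and 11.08. It differed by 0.47, with 0.36, 0.58 and 0.46 in the high, low and pool classes. The difference was 0.094 without the stress pool and 0.85 without the control pool, where a single group keeps its higher pool. Cited4 and Rgcc differed by -0.52 and -0.27. Genes of cholesterol synthesis and uptake were higher for 12 of 18 (median 0.17), with Cyp51, a demethylase of the synthesis pathway, at 0.37, Abca1, a cholesterol exporter, at 0.36, Insig1, a sterol sensor partner, at 0.32 and Npc2, a lysosomal cholesterol carrier, at -0.28. The medians of this list were 0.18, 0.21 and 0.01 in the high, low and pool classes.

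Among genes of ovulation and cumulus expansion, 21 of 30 were higher under stress (median 0.18), with medians of 0.17 in the high class, 0.33 in the low class and 0.06 in the pool class. Ereg, the EGF-like growth factor epiregulin that carries the LH signal to the cumulus, read 8.90, 8.03 and 8.93 in control and 9.20, 10.28 and 9.45 in stress arrays. It was higher in every stress ovary than in any control, with the lowest control and the highest stress value both in the low mice. Controls averaged 8.62 ± 0.51 (SD, n = 3) and stress ovaries 9.64 ± 0.57 (SD, n = 3), which is 1.03 higher (SE 0.34), or 2.04-fold. The unadjusted p was 0.0146 and the adjusted p 0.999 (limma).

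Ptgs2, the inducible cyclooxygenase of the preovulatory follicle, read 7.46, 6.27 and 8.80 in control and 8.24, 8.83 and 9.24 in stress arrays. The control pool lay above the stressed high mouse, so the groups overlapped. The class differences were 0.79, 2.56 and 0.44 (mean 1.26, SE 0.55, unadjusted p = 0.0498, limma). Without the low mice of both groups the remaining class differences are those of 0.79 and 0.44. Il6, a cytokine that cumulus cells also make, read 3.06, 3.38 and 4.39 against 4.31, 4.12 and 4.79, low signals that differed by 0.80. Btc, the growth factor betacellulin, differed by 0.40 at 4.57 to 5.36.

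Other parts of the ovulatory response showed smaller differences. Has2, which makes the hyaluronan of the expanding cumulus, read 4.46, 4.60 and 4.73 in control and 4.36, 4.65 and 5.58 in stress arrays. Tnfaip6 and Ptx3, which crosslink that hyaluronan, differed by 0.15 and 0.02. Pgr, the progesterone receptor that the LH signal induces for a short time, read only 4.12 to 4.89 and differed by -0.02. Adamts1, a protease of follicle rupture, differed by 0.23 and Edn2, the endothelin of the rupturing follicle, by -0.24. The time between the last injection and collection is not given in the sources used here, so the stage of this response is unknown.

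**Figure D3:**
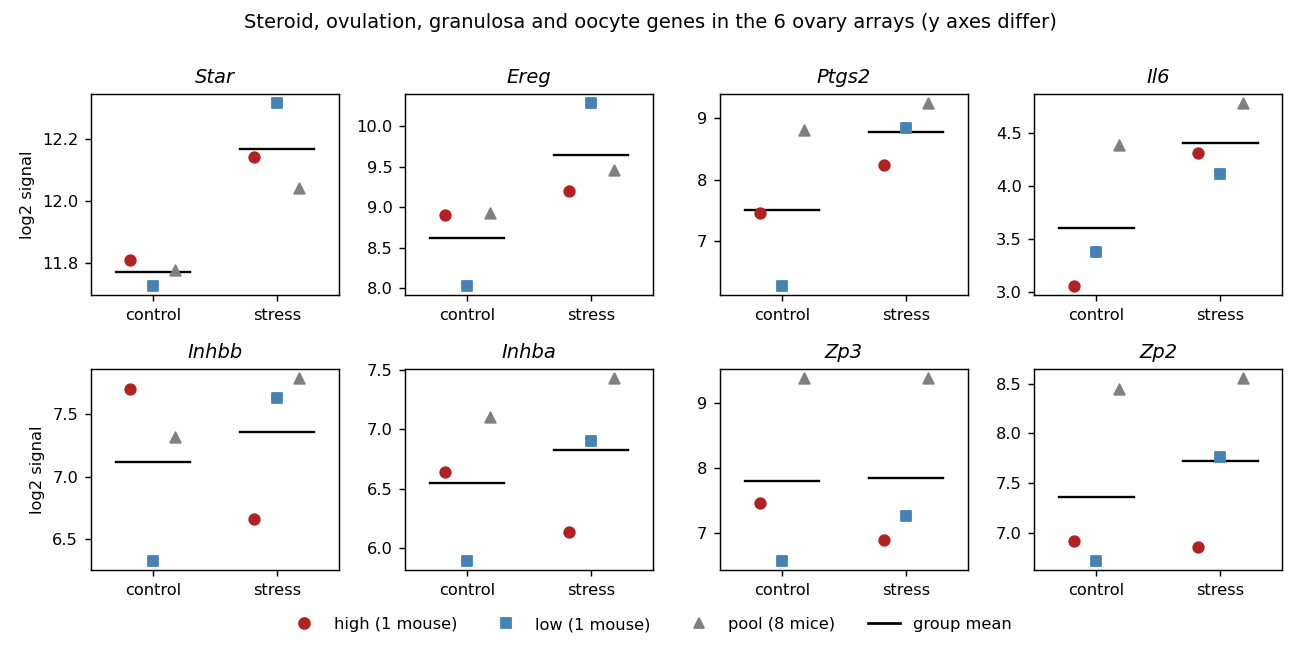
Log2 signal of 8 genes in the 6 ovary arrays, control on the left and stress on the right of each panel; symbols show the class and the black line the mean of 3 arrays. Star and Ereg do not overlap between groups, Ptgs2 does, and Inhbb, Inhba and the zona pellucida genes are lower in the stressed than the control high mouse and higher in the stressed than the control low mouse.

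Genes of growing follicles differed in opposite directions in the high and the low mice. The granulosa list was higher for 19 of 23 members on average (median 0.13), but only 6 of 23 were higher in the high class (median -0.27) against 20 of 23 in the low class (median 0.43) and 17 in the pool class (median 0.05). Over all genes 46.0% were higher in the high class, 50.5% in the low class and 48.3% in the pool class. The control low mouse had the lowest value of the 6 arrays for 14 of the 23 genes and the stressed high mouse for 5. The difference of the high and the low classes was not tested, since each class holds 1 array per group.

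Inhbb, the inhibin and activin beta B subunit of small and growing follicles, read 7.70, 6.32 and 7.31 in control and 6.66, 7.63 and 7.79 in stress arrays. The class differences were -1.04, 1.31 and 0.47, so the control low and the stressed high mouse were the lowest of the 6. Inhba, the beta A subunit, read 6.64, 5.89 and 7.11 against 6.13, 6.90 and 7.43, with the same order of classes. Inha, the alpha subunit, differed by -0.30, 0.32 and 0.02, and Amh by -0.64, 0.70 and -0.42.

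Fst, the activin-binding protein follistatin, differed by -0.31, 0.50 and 0.17 in the high, low and pool classes. Fshr, the receptor of the follicle-stimulating signal, differed by -0.14, 0.50 and -0.28, and Esr2, the estrogen receptor of granulosa cells, by -0.44, 0.69 and 0.21. Nr5a2, a nuclear receptor of granulosa and luteal cells, departed from this with 0.53, 0.44 and -0.43. Ccnd2, the cyclin through which follicle-stimulating hormone drives granulosa division, differed evenly by 0.28, 0.30 and 0.25, and Kitl, the granulosa ligand of the oocyte receptor Kit, by -0.12, 0.46 and 0.41. Foxl2, a transcription factor that maintains granulosa identity, differed by -0.06 on average, and Nr0b1 by 0.39.

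Oocyte genes had the same opposition. Of 7 oocyte markers 0 were higher in the high class (median -0.37), 6 in the low class (median 0.70) and 5 in the pool class (median 0.28). Zp3, a protein of the zona pellucida, read 7.46, 6.56 and 9.39 in control and 6.89, 7.26 and 9.39 in stress arrays. Zp2, its partner, read 6.92, 6.72 and 8.44 against 6.86, 7.76 and 8.55. Both pools lay above all single mice for each, and for 12 of the 29 genes of the longer oocyte list. That order also held for 19 of 27 cell cycle and 11 of 23 granulosa genes, but for 0 of 15 steroid synthesis genes. Its share over all genes was not counted.

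That list of 29 genes was higher for 12 on average (median -0.03), with class medians of -0.27, 0.15 and 0.04. Bmp15, an oocyte growth factor, differed by -0.22, 0.77 and 0.63, and Nlrp5, a maternal-effect protein, by -0.44, 1.31 and 0.83. Gdf9, the other oocyte growth factor, differed by -0.37, 0.04 and -0.37, and Zp1 by -0.05 on average. Tle6, a part of the subcortical maternal complex, was the only 1 of the 29 with an unadjusted p under 0.05 (0.0271, limma). Over all genes 2.67% reached that level. It read 7.48, 7.45 and 7.18 in control and 6.28, 6.95 and 7.02 in stress arrays, lower without overlap by 0.62.

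Cell cycle genes were higher for 6 of 27 in the high class (median -0.30), 23 of 27 in the low class (median 0.23) and 14 in the pool class (median 0.01). The stressed high and the control low mouse each had the lowest value for 11 of the 27 genes. Theca and stroma genes followed with class medians of -0.17, 0.16 and 0.06. Among these the matrix proteoglycans Ogn and Dcn were higher by 0.75 and 0.42 on average. In the plot of list medians the high and low mice thus lie on opposite sides of 0 for these 4 lists.

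**Figure D4:**
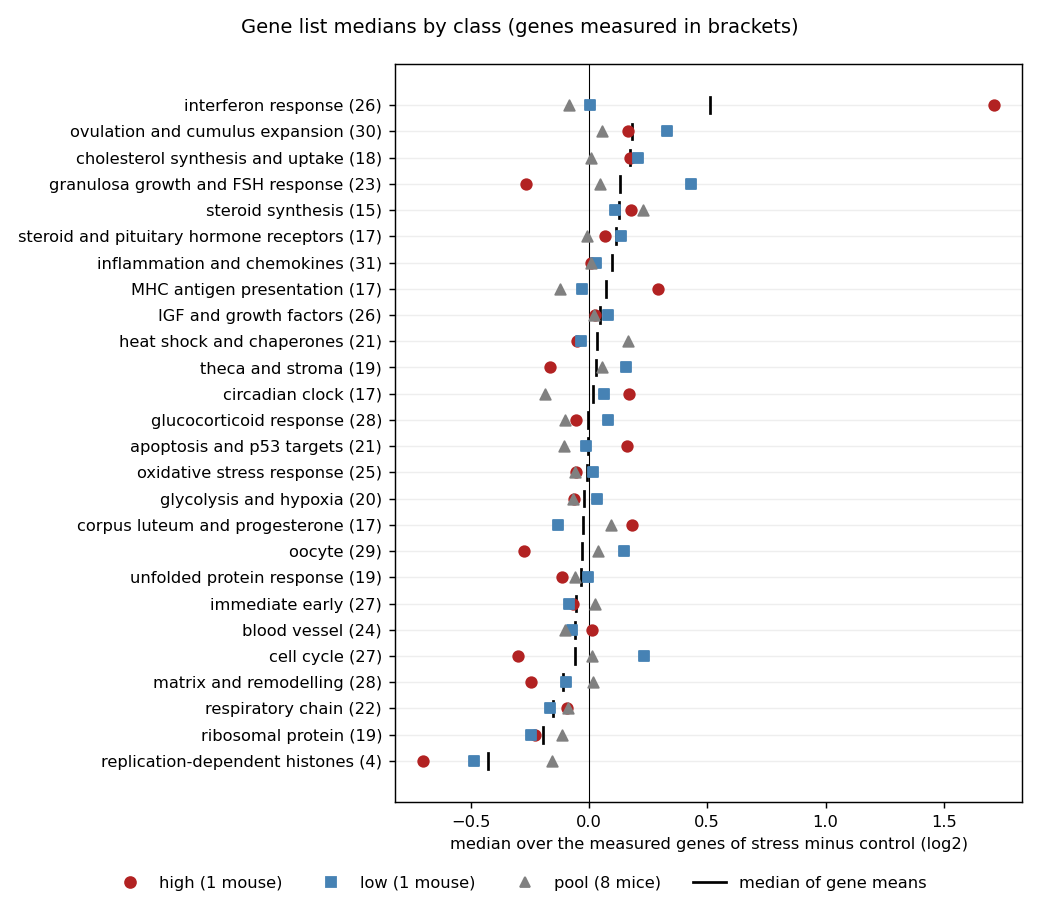
Median over the measured genes of each list of stress minus control (log2), for the high mice (circles), the low mice (squares), pools (triangles) and the mean of the classes (black tick). The interferon list reaches 1.71 in the high class and lies at 0.01 and -0.08 in the other classes, while the granulosa, oocyte and cell cycle lists are below 0 for the high mice and above 0 for the low mice.

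Interferon-response genes formed the largest shift of a list, and it lay in a single animal. All 26 measured genes were higher under stress on average (median 0.51), yet 0 had an unadjusted p under 0.05, and only Gbp3 and Ifit3 (chosen for this count) did not overlap between groups, against 4.71% of all genes wholly higher under stress. That 0 depends on the members of the list. Ifi205, Gbp4 and Gbp7, interferon-related genes outside it, had unadjusted p of 0.00445, 0.00951 and 0.0173 (limma). The stressed high ovary had the highest of the 6 values for 26 of 26 listed genes. Its mean level over the list was 8.44, against 6.77, 6.77 and 6.96 in the control high, low and pool arrays and 6.72 and 6.85 in the stressed low and pool arrays. In the high class 21 of 26 genes differed by more than 1 (range 0.17 to 3.12, median 1.71). The low mice ranged from -0.82 to 0.42 (median 0.01, 13 higher) and the pools from -0.74 to 0.45 (median -0.08, 9 higher). Without the stressed high mouse the median over the list was -0.03.

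Gbp3, a guanylate-binding GTPase, read 5.53, 5.57 and 5.48 in control and 8.29, 5.99 and 5.89 in stress arrays, a mean difference of 1.20 (SE 0.55) made of 2.76, 0.42 and 0.41. Irgm1 and Igtp, GTPases that act on membranes around intracellular pathogens, read 6.26, 5.98 and 6.73 against 8.01, 6.27 and 7.02, and 7.25, 7.38 and 7.59 against 9.32, 7.42 and 7.77. Ifih1, the cytosolic sensor of double-stranded RNA called MDA5, read 6.98, 7.21 and 7.06 against 9.01, 7.50 and 7.12. In each case the stressed high mouse stood above the other 5 ovaries.

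The same animal pair showed it in its other tissues. The median of the list in the high class was 1.31 in pituitary and 0.56 in hypothalamus, while in the low class it was -0.15 and 0.04 and in the pool class -0.07 and -0.07. Of the immune cell markers in the high class, 0 of 11 macrophage markers were higher (median -0.15), 3 of 10 T and NK cell markers (median -0.08) and 3 of 5 B cell markers (median 0.15). The same held for 3 of 6 mast cell markers (median 0.04, Cpa3 at 0.81) and 6 of 10 neutrophil markers (median 0.09). All 11 macrophage markers lay at or above the median level of all genes. Of the others, 2 of 10 T and NK cell, 1 of 5 B cell, 2 of 6 mast cell and 1 of 10 neutrophil markers did. Ms4a6d, which is in none of these lists, differed by 1.75 in that class, and the part of immune cells in the interferon values was not tested. Since 1 mouse carried the shift, transport and the animal cannot be told apart for this list.

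Interferon-stimulated genes are read by STAT and IRF complexes at the interferon-stimulated response element, whose core is the letters GAAA, any 2 bases, and GAAA again. Promoter windows from RefSeq (assembly GRCm38.p6, 250 bases before to 50 bases after the start) were found for 20 of the 26 genes. The core was present on either strand, overlapping matches included, in 12 of the 20 (60.0%), against 1079 of 27025 genes (3.99%) with a window in the table. The gamma-activated site TTCNNNGAA was present in 4 of the 20 (20.0%) against 9.55% of all genes. The 250 bases before the start are shown for 3 of the 4 list members with the smallest p, since their matches lie before the start; matches are in capitals and sequences run 5′ to 3′ on the gene's strand. The Gbp3 stretch lies at chr3:142559794-142560043 on the plus strand, Irgm1 at chr11:48871421-48871670 on the minus strand and Igtp at chr11:58199306-58199555 on the plus strand.
Gbp3: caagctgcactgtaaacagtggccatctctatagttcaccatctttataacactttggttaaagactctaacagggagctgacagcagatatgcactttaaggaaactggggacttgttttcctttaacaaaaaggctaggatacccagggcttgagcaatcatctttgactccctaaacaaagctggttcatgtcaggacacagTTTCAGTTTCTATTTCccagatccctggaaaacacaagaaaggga
Irgm1: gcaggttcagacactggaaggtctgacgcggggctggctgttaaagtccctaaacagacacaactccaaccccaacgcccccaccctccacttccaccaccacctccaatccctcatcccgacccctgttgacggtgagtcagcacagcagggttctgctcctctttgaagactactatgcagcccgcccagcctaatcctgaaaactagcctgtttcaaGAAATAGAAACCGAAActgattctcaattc
Igtp: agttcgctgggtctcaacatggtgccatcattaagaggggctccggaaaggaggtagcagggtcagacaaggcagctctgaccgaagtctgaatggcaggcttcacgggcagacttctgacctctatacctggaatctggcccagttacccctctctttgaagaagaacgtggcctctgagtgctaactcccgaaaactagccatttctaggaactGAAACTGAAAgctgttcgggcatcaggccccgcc

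Gbp3 and Irgm1 each hold 2 overlapping matches and Igtp holds 1, all within 45 bases of the start. In Gbp3 the core is read on the opposite strand, and a further Gbp3 window in the table, from another start, holds 0 matches. Ifih1, the other of these members, has its match after the start, within the transcribed stretch, and is not shown. A match is a string of letters and was not shown to bind a factor in these ovaries.

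**Figure D5:**
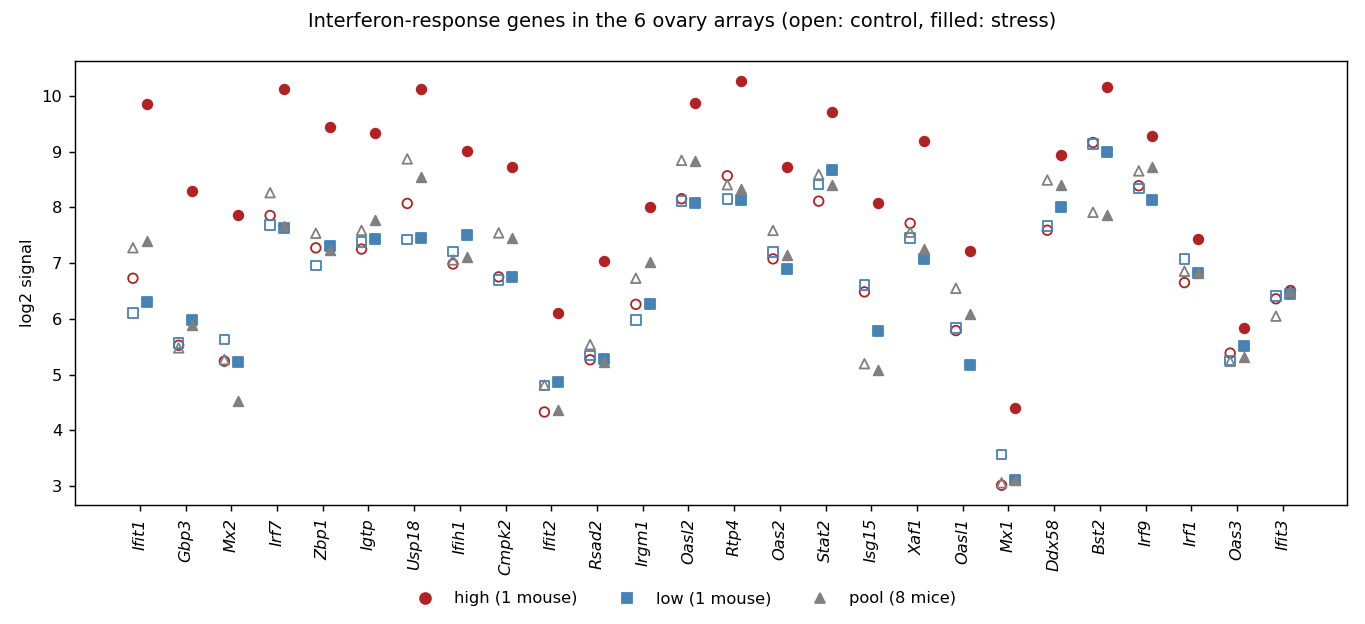
Log2 signal of the 26 measured interferon-response genes in the 6 ovary arrays, ordered by the difference in the high class; open symbols are control and filled symbols stress, with circles for the high mouse, squares for the low mouse and triangles for the pool. The filled circle, the stressed high ovary, is the top symbol for all 26 genes, with the other 5 arrays below it.

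Antigen presentation genes were higher for 15 of 17 (median 0.07), with class medians of 0.29, -0.03 and -0.12. B2m, the light chain of class I molecules, read 12.24, 12.15 and 12.30 in control and 12.78, 12.49 and 12.46 in stress arrays, higher without overlap by 0.35. Tap1, the peptide transporter, read 9.22 in the stressed high mouse and 8.14 to 8.39 in the other 5. Inflammation and chemokine genes were higher for 16 of 31 (median 0.10). Il1b, the cytokine interleukin 1 beta, read 4.84, 5.38 and 5.46 in control and 5.90, 5.65 and 5.71 in stress arrays, higher without overlap by 0.53. Ccl4, a chemokine for monocytes, differed by -0.43.

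Direct readouts of glucocorticoid action had no common direction. The glucocorticoid list was higher for 14 of 28 (median 0.00), with class medians of -0.06, 0.08 and -0.10. Fkbp5, a receptor co-chaperone and standard target, read 9.86, 10.02 and 9.04 in control and 10.13, 9.89 and 8.95 in stress arrays. Tsc22d3, the leucine zipper GILZ, differed by 0.04 (95% interval -0.35 to 0.44), Per1 by 0.02 (-0.42 to 0.45) and Sgk1 by -0.09 (-0.51 to 0.33). These intervals allow changes of either sign, and responses within them were not detectable. The time from transport to collection is not among the sample details used here. These values, and those of the stress lists below, therefore describe the ovary at collection only. Zbtb16, another target, differed by 0.52, 1.45 and -0.41 in the 3 classes. Gadd45b and Gadd45g were lower without overlap by 0.33 and 0.25.

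The receptor gene itself, Nr3c1, read 7.17 to 7.50 in control and 7.44 to 7.49 in stress arrays, a difference of 0.10. Hsd11b1, which regenerates active glucocorticoid, read 4.09 to 4.96 over all 6 arrays. Hsd11b2, which inactivates it, read 6.77, 6.50 and 8.17 in control and 5.83, 6.67 and 7.80 in stress arrays (-0.38, 95% interval -1.62 to 0.86). Over all measured steroid and pituitary hormone receptors 12 of 17 were higher (median 0.11). Lepr, the leptin receptor, was higher without overlap by 0.55, reading 6.37, 5.91 and 6.24 against 6.85, 6.68 and 6.65. Esr1 differed by 0.08 and Nr3c2, the mineralocorticoid receptor, by 0.36.

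Lists of general stress responses had medians near that of all genes. Immediate early genes were higher for 13 of 27 (median -0.05; Myc -0.30 without overlap), heat shock genes for 12 of 21 (median 0.03), unfolded protein response genes for 7 of 19 (median -0.03), oxidative stress genes for 12 of 25 (median -0.01) and apoptosis genes for 10 of 21 (median 0.00). Hspa1a, the inducible Hsp70, read 8.46, 8.21 and 8.34 in control and 7.56, 7.25 and 8.71 in stress arrays, lower in the single mice and higher in the pool. Dnajb9, an endoplasmic reticulum co-chaperone, stood out in its list and was higher without overlap by 0.67 (7.69, 7.78 and 8.18 against 8.49, 8.30 and 8.86). Hmox1, heme oxygenase 1, was lower without overlap by 0.36 and Nqo1, a quinone reductase, by 0.25. Casp8, the caspase of death receptors, was higher without overlap by 0.74 (1.26, 0.56 and 0.41 by class), and Ccng1, a p53 target, differed by 0.72 with overlap.

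Among clock genes 9 of 17 were higher (median 0.02). Clock, the activating transcription factor of the loop, read 9.15, 8.67 and 8.47 in control and 9.96, 9.51 and 9.17 in stress arrays, higher without overlap by 0.78 and by a like amount in each class (0.80, 0.84 and 0.70). The output gene Dbp and the repressor Nr1d1 differed by -0.36 and -0.32, both with overlap. The hour of tissue collection is not given in the sources used here.

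Ribosomal protein genes were higher for only 4 of 19 (median -0.19), respiratory chain genes for 6 of 22 (median -0.15) and replication-dependent histone genes for 0 of 4 (median -0.43). The median genomic span was 3.67 kb for the ribosomal protein, 6.98 kb for the respiratory chain and 0.62 kb for the histone genes, each below the 24.6 kb of the 10622 genes above. Rplp1 differed by -0.34 and Cox4i1 by -0.40, while Rpl4 was higher without overlap by 0.35. H2bc3 differed by -0.50 and H1f5 by -0.64. Glycolysis and hypoxia genes were higher for 8 of 20 (median -0.02). The part of gene length in these lists was not tested.

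Matrix and remodelling genes were higher for 8 of 28 (median -0.11), with Col18a1, the source of endostatin, at -0.56, Col6a3 at -0.46 and Mmp9, a gelatinase, at -0.38. Blood vessel genes were higher for 9 of 24 (median -0.06). Angpt2, which loosens vessels during luteal vascularization, read 6.33, 6.33 and 6.61 in control and 7.18, 6.55 and 7.02 in stress arrays, a difference of 0.50 with overlap. Plvap, of fenestrated endothelium, was lower without overlap by 0.29. Growth factor genes were higher for 14 of 26 (median 0.05), with Bmp4, a theca-derived ligand, at 0.31 without overlap, and Stc1, a stanniocalcin, at 0.62.

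Markers of tissues that can be dissected with the ovary were compared as well. Oviduct and uterine epithelium markers were higher for 4 of 9 (median -0.01), adipocyte markers for 5 of 7 (median 0.11), surface epithelium markers for 4 of 7 (median 0.08), smooth muscle markers for 1 of 6 (median -0.06), skeletal muscle markers for 3 of 5 (median 0.01) and endothelial markers for 4 of 6 (median 0.01). T and NK cell markers were higher for 5 of 10 (median -0.02), B cell markers for 3 of 5 (median 0.17), mast cell markers for 3 of 6 (median 0.01) and neuronal markers for 6 of 12 (median 0.01), and the erythrocyte marker Slc4a1 differed by -0.01. Adrenal cortex markers were higher for 3 of 4 (median 0.30), with class medians of 0.31, 0.35 and 0.19. Among them Cyp11b1, the last enzyme of corticosterone synthesis, read 10.52 to 10.87 in control and 10.81 to 11.29 in stress arrays, a difference of 0.42 with overlap. Cyp21a1, a steroid hydroxylase gene, differed by 0.18 at 3.60 to 4.53, and Cyp11b2 was higher without overlap by 0.56 at 3.42 to 4.69. Cpa3, a mast cell protease, differed by 0.80, with 0.81, 0.72 and 0.88 in the 3 classes and overlapping groups. Only 1 of 5 skeletal muscle, 1 of 4 adrenal cortex and 5 of 12 neuronal markers lay at or above the median level of all genes. Slc4a1 lay below it.

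Finally, the stress difference in ovary was set against that in the other tissues of the same mice in a fit of all 18 arrays. No difference between tissues passed: 0 of 22180 genes, or 0%, for ovary against hypothalamus (496 at an unadjusted p under 0.05) and 0, or 0%, for ovary against pituitary (805; lowest adjusted p = 0.99987, limma). The genes nearest to a difference from pituitary were Hnf4g (-0.95), Ccn5 (-1.24), Parpbp (1.15) and Chek2 (1.05), given as the ovary minus the pituitary difference. Ccn5, a secreted matricellular protein, read 10.02, 10.23 and 10.17 in control and 10.01, 9.24 and 9.76 in stress ovaries. For Ereg the ovary minus pituitary difference was 0.96 and for Ifi205 it was 0.62, while for Star it was -1.11, where the stress pituitary pool read 8.91. None of the ovarian differences above was therefore shown to be particular to the ovary. Without the pool arrays, 1 gene passed against hypothalamus, the dopamine transporter gene Slc6a3 (-2.80, adjusted p = 0.0298, limma). Its single mice read 5.36 and 5.43 in control and 4.94 and 5.05 in stress ovaries. In hypothalamus they read 5.86 and 6.12 in control and 8.09 and 8.68 in stress arrays. The hypothalamus pools, left out of that fit, went the other way, at 8.31 in control and 7.50 in stress. The Slc6a3 difference in hypothalamus was thus not shared by the pools.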

How the data were processed

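RNA from 6 ovary arrays (Affymetrix Mouse Gene 2.0 ST) was analysed, with 12 arrays of other tissues for markers and interactions. The deposited log2 values, 1 per transcript cluster and array, were made by the authors with Transcriptome Analysis Console, per the submitters' processing notes. Its version, background correction and normalization are not given in the sources used here. Of 41345 clusters, 23521 named exactly 1 gene. For the 1082 genes with several, the cluster with the highest mean was used, giving 22180 genes with no filter on low values.

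The groups were compared by lmFit and eBayes of limma 3.58.1 in R 4.3.3 (two-sided, 4 residual degrees of freedom before moderation). Adjusted p-values are Benjamini-Hochberg values across all genes, called under 0.05. Intervals are 95% confidence intervals, and fold changes are 2 to the power of the log2 difference. Interactions used all 18 arrays with the mouse or pool as a random block (consensus correlation 0.2701). Scripts were tested on simulated data. Plots used matplotlib 3.10.9 (Python 3.11.15). The number of arrays limits the precision.

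Genes were named by rule: 15 per direction of smallest p without overlap at or above the median level, 45 preset genes of reproduction and stress (41 measured), up to 4 members of smallest p per described list, and up to 5 genes per interaction. Predicted genes, small RNAs and odorant receptors (4960 in all) were counted and not named. The members, lists and rules were chosen with earlier results of these data known.

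Whether class pairs the samples was checked from each array's deviation from its group mean. Same-class correlations were 0.373 (high), 0.374 (low) and 0.727 (pool), and different-class ones ran from -0.495 to 0.263. Any pairing rests on the class labels, since no animals are shared.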

Additional observations from a re-analysis of the deposited data

How the results depend on the processing

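No gene of the ovary comparison passed in any alternative run: quantile normalization, median centring, the mean of a gene's clusters, an intensity trend, all 18 arrays in the fit, only genes at or above the median level, the replicate block, no pools, or any 1 array left out (0 genes in each, with 373 to 2198 at an unadjusted p under 0.05). Pairing by class as a replicate block raised that number from 592 to 2198 and changed no other call. Removing the pools together with the block, chosen after seeing the data, gave 0 and 1852. For ovary against hypothalamus, 1 gene passed without the pools, and the cause was not tested. Of all 136 named genes of the rule, 98 kept their sign throughout, among them the 30 ranked genes. Those 30 were chosen for no overlap between groups. That condition fixes their sign when arrays are left out, so it is no support for them. Without the pools, with and without the block, the sign turned for Amh (0.027), Cyp11a1 (-0.039), Gh (-0.11), Has2 (-0.025), Nr5a1 (0.050), Ptx3 (-0.052) and Slc4a1 (0.066). Cyp11a1 also turned with quantile normalization (-0.033) and with the mean of clusters (-0.094). Leaving out 1 array turned the sign of 38 genes: the difference ranged from -0.042 to 0.57 for Adamts1, from -0.0078 to 0.21 for Akr1c18, from -0.59 to 0.50 for Amh, from -0.17 to 0.83 for Bmp15, from -1.0 to 0.064 for Cited4, from -0.11 to 0.14 for Cyp11a1, from -0.048 to 0.41 for Cyp17a1, from -0.012 to 0.36 for Cyp21a1, from -0.64 to 0.24 for Edn2 and from -0.063 to 0.23 for Esr1. It ranged from -0.14 to 0.32 for Esr2, from -0.28 to 0.37 for Fkbp5, from -0.22 to 0.050 for Foxl2, from -0.50 to 0.45 for Fshr, from -0.29 to 0.49 for Fst, from -1.65 to 1.60 for Gh, from -0.090 to 0.52 for Has2, from -0.41 to 0.023 for Hsd11b1, from -0.89 to 0.14 for Hsd11b2 and from -0.24 to 0.073 for Hsd17b7. It ranged from -0.31 to 0.34 for Inha, from -0.051 to 0.62 for Inhba, from -0.15 to 0.60 for Inhbb, from -0.33 to 0.24 for Nr5a1, from -0.095 to 0.39 for Nr5a2, from -0.073 to 0.15 for Per1, from -0.20 to 0.19 for Pgr, from -2.64 to 1.71 for Prl, from -0.057 to 0.34 for Ptch1 and from -0.27 to 0.14 for Ptgfr. It ranged from -0.077 to 0.12 for Ptx3, from -0.21 to 0.039 for Sgk1, from -0.11 to 0.079 for Slc4a1, from -0.18 to 0.47 for Tnfaip6, from -0.024 to 0.14 for Tsc22d3, from -0.67 to 0.41 for Zp1, from -0.047 to 0.91 for Zp2 and from -0.73 to 0.83 for Zp3. Of the other 98 genes, 47 moved by over 1.5 times when 1 array was left out. Each such fit leaves the classes unequal between the groups. The ranges therefore also hold differences between classes, as for Prl and Gh, whose pools lay far above the single mice. The number of arrays and their spread limit what can be read. Of 450 list medians, 64 moved by more than the spread of the classes. Signals near background, such as Pgr and Il6, limit small changes too.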

Other observations

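Small nucleolar RNA genes, which guide the modification of ribosomal and spliceosomal RNA, were mostly lower in stressed ovaries. The set was picked after its values were seen and has no test. Of 78 genes, 75 were lower (median -0.49): 70 in the high class (median -0.42), 77 in the low class (-0.78) and 63 in the pool class (-0.25). Their median level was 9.64, 9.85 and 7.85 in the control high, low and pool arrays and 9.05, 9.02 and 7.68 in the stress arrays, so the pools of both groups lay well below the single mice. In pituitary the medians were -0.31, -0.06 and 0.04, and in hypothalamus -0.17, 0.22 and 0.01. The groups did not overlap for 7 of the 78, lower under stress, and for 0 in the other direction, where the shares of all genes were 4.07% and 4.71%.

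Rnase2a, a secreted ribonuclease of eosinophils and macrophages, had the largest mean difference of all genes with a name, 2.02, with 3.43, 1.67 and 0.97 in the high, low and pool classes (unadjusted p = 0.00314, limma). It lay below the median level of all genes, at a mean of 5.15, and so was outside the ranking. Some interferon-related genes that were not in the list followed the stressed high mouse. Iigp1 differed by 3.83 in the high class against 0.29 and 0.20 in the other classes. Gbp7 differed by 2.74 against 0.49 and 0.60, and Ifi202b by 2.67 against -0.17 and 0.51. Not all such genes did so, since Ifi205, also outside the list, differed by 0.89, 1.08 and 1.02 in the high, low and pool classes. The neighbouring low-mouse extremes were Ptgs2 and Ereg among higher genes and Col2a1 (-2.37), Saa2 and Saa3 among lower ones. All genes of this paragraph were chosen after their values were seen.

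Odorant receptor genes gave 55 of 1105 genes at an unadjusted p under 0.05, where the share of all genes was 2.67%, at a median level of 2.61, and 1094 of them lay below the median level of all genes. Of the 592 genes at that p, 339 lay below the median level.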
